A study of Gossypium hirsutum and Gossypium barbadense with 16 samples.

Results

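Fiber cells of the wild-type Upland cotton GhTM-1 at 2 days post anthesis (DPA) were compared with the ovule epidermis of the fiberless mutant GhMD17 at the same stage. The comparison holds 4 of the 16 libraries of the series, 2 of GhTM-1 fiber and 2 of GhMD17 epidermis, chosen by line, cell type and stage as labelled. Both lines are Gossypium hirsutum. GhTM-1 is the wild-type accession, and GhMD17 is a mutant that arose naturally, bears naked seeds and has the proposed genotype N1N1n2n2n3n3. The ovules came from untreated flowers, were embedded in paraffin and were cut by laser capture microdissection (LCM). From GhTM-1 at 2 DPA the protruding fibers were cut first and the epidermis beneath them second, whereas from GhMD17, which had no fibers, the top epidermal layer was cut. The fiber and the mutant epidermis therefore differ in cell type and in line together, and the 2 cannot be told apart from these 4 libraries alone. GhTM-1 epidermis at 0 and 2 DPA, GhMD17 epidermis at 0 DPA, and fiber and epidermis of the wild-type Pima cotton Gb3-79 (Gossypium barbadense) at 2 DPA, with 2 libraries each, were used beside them.

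A cotton fiber is a single cell of the ovule epidermis that leaves division, bulges from the surface around flowering and then elongates without branching. MYB transcription factors, which bind DNA through a repeated helix-turn-helix domain, are known regulators of this step in cotton and of leaf trichomes and root hairs in Arabidopsis. In GhMD17, a MYB25-like gene on chromosome A12 is known to be silenced by small RNAs, and no fiber initials are formed. Auxin, a hormone that promotes fiber initiation in cultured ovules, acts on genes through auxin response factors (ARFs).

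Expression was given as FPKM, fragment counts scaled by transcript length and library depth, for 75376 genes, of which 57469 were over 0 in at least 1 of the 10 G. hirsutum libraries. The fiber libraries held 43136 and 44546 genes over 0 and the GhMD17 libraries at 2 DPA 50112 and 50296. In these 4 libraries, 5.35% to 9.11% of all FPKM fell on the 10 most abundant genes. Read counts were not used. Relative depth was read from the most frequent ratio of FPKM among genes over 0 and under 0.15 FPKM in both libraries. It put fiber replicate 1 at 1.73 times the depth of replicate 2, a ratio near which only 42 of 308 such genes lay. The GhMD17 libraries were put at 0.889 and 1.13 times that of fiber replicate 2 (91 of 397 and 85 of 442 genes). The correlation across genes, on log2(FPKM + 1), was 0.959 between the fiber replicates, 0.949 between the GhMD17 replicates and 0.842 to 0.850 between a fiber and a GhMD17 library. Genes are not independent replicates, so these are descriptions.

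The labelled cell types were set beside 9 MYB genes, of which the study chose all but the 2 GhMYB2 homologs on these samples, so they are no independent check of the labels. The 6 homologs of fiber genes (GhMYB25, GhMYB109 and GhMYB2) summed to 543 and 526 FPKM in the fiber libraries, 316 and 326 FPKM in GhTM-1 epidermis, and 97.7 and 99.6 FPKM in GhMD17 at 2 DPA. Of these 6, 3 were called higher in fiber and 0 lower, beside 4.91% and 9.61% of all genes tested by the rule given below. The 3 homologs of MYB16, which acts in the cuticle of epidermal cells in Arabidopsis, summed to 9.57 and 11.5 FPKM in fiber. In GhMD17 they summed to 48.1 and 63.5 FPKM, and all 3 were called lower. Arabidopsis MYB106, in the clade of the GhMYB25 homologs, also acts in the cuticle, so that role does not separate the 2 lists. The homolog of MYB96, which promotes cuticular wax in Arabidopsis, was called higher in fiber (log2 change 1.92). The sum of the fiber genes rests mostly on the 2 GhMYB25 homologs, and the 2 GhMYB2 homologs had higher means in GhMD17. The sources hold no gene IDs for markers of the nucellus or inner integument, so the part of these cells in either sample was not tested.

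Far more genes were lower in fiber than higher. With limma on log2(FPKM + 1), 2822 genes were called higher in fiber (4.91% of the genes tested) and 5523 lower (9.61%). A call needed 3 things, a two-sided P under 0.01 before adjustment, a mean over 5 FPKM in whichever group was higher, and a ratio of means over 2. Of the 25609 genes over 5 FPKM in the higher group, these were 11.02% and 21.6%. After Benjamini-Hochberg adjustment the largest p of the 8345 called genes was 0.044. The median log2 change was -0.22 over all genes tested and -0.32 over those above 5 FPKM. Ratios over 4 were reached by 1058 genes higher and 2736 genes lower, ratios over 16 by 341 and 691. Both GhMD17 libraries were listed at 0 for 7 of the genes called higher, and both fiber libraries for 119 of those called lower. These samples are pooled cells, so fewer cells of a type and less RNA per cell cannot be told apart. The replicates are biological, but an exact permutation of 2 against 2 libraries cannot go below a two-sided p of 0.333, so each P rests on the spread shared across groups and genes.

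**Figure D1:**
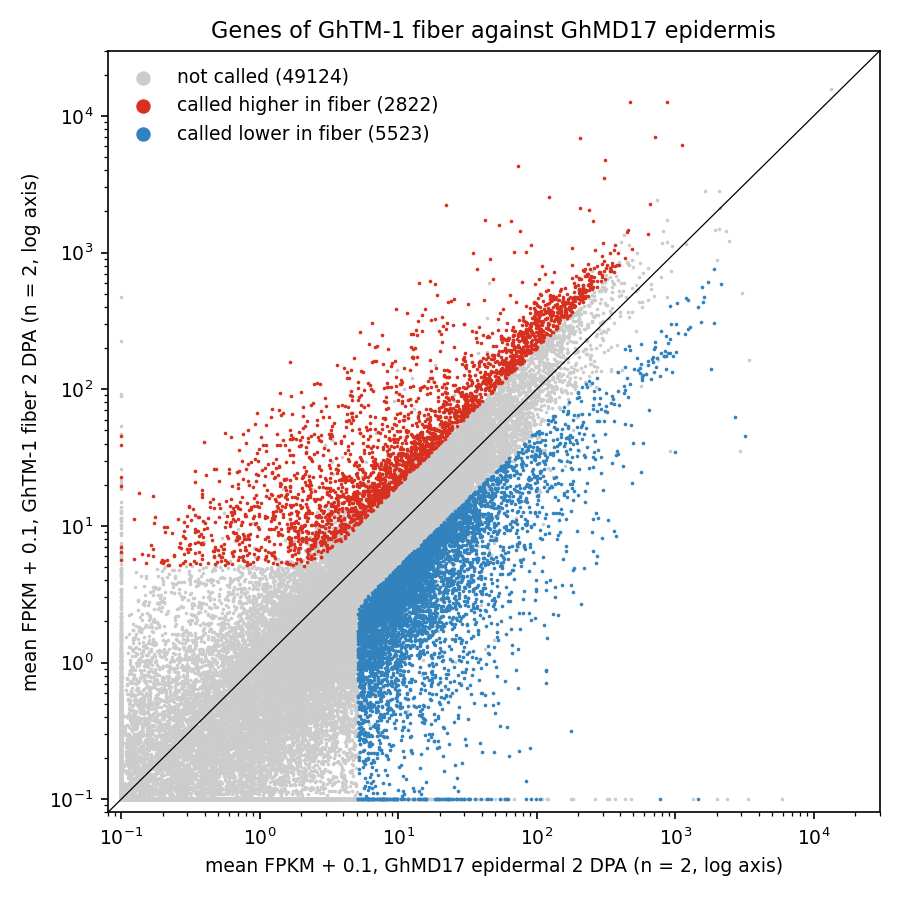
Mean FPKM + 0.1 of each gene in GhMD17 epidermis (horizontal) and GhTM-1 fiber (vertical) at 2 DPA, both on log axes with 2 libraries per mean, and the line of equal level. The 2822 genes called higher in fiber lie above the line and the 5523 called lower lie beneath it, and the straight edges at 5 FPKM are the minimum set for a call.

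GhTM-1 epidermis, cut from beneath the fibers, lay between fiber and mutant for nearly all of these genes. Among the genes called higher, the median level was 38.9 and 38.0 FPKM in the fiber libraries, 24.5 and 24.1 FPKM in GhTM-1 epidermis at 2 DPA, and 10.1 and 9.70 FPKM in GhMD17 at 2 DPA. Among the genes called lower, the medians were 3.21 and 3.05 FPKM in fiber, 7.43 and 8.50 FPKM in GhTM-1 epidermis, and 13.4 and 12.8 FPKM in GhMD17. The mean of GhTM-1 epidermis was between the other two groups for 2729 of the genes called higher (96.7%) and 5159 of those called lower (93.4%), against 58.3% of the 17264 genes over 5 FPKM that were not called. The steps were unequal in the 2 directions. For the genes called higher, the median log2 difference was 0.64 for fiber minus GhTM-1 epidermis and 0.96 for GhTM-1 minus GhMD17 epidermis. For the genes called lower, the same differences were -1.05 and -0.62. The 3 comparisons share libraries and the genes were chosen by the first, so these values are descriptions and were not tested. The genes not called include those with a small gap between fiber and GhMD17, so their 58.3% is not an even comparison. A fiber is a cell of the epidermis, so parts of fiber cells may remain in GhTM-1 epidermis after the first cut. How far such mixing sets its middle level was not tested.

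The largest rises in fiber were in genes known here only by their IDs, in which the letter and number after the dot name the chromosome. Gohir.A10G150200 had 1772 and 2693 FPKM in fiber against 27.0 and 17.0 FPKM in GhMD17, a ratio of 101 (log2 change 6.60 ± 0.30, SE, limma adjusted p = 4.60e-05). In GhTM-1 epidermis it had 688 and 758 FPKM at 2 DPA but only 4.38 and 6.58 FPKM at 0 DPA, and was thus low in the wild type too on the day of flowering. Gohir.A06G172800 followed the same course at a lower level, with 119 and 199.9 FPKM in fiber, 1.56 and 1.54 FPKM in GhMD17, and 0.313 and 0.31 FPKM in GhTM-1 at 0 DPA. Gohir.D10G116200 had 3226 and 5389 FPKM in fiber and 72.1 and 73.6 FPKM in GhMD17. Unlike the former genes it was already at 115 and 120 FPKM in GhTM-1 epidermis at 0 DPA, where GhMD17 had 1.43 and 6.36 FPKM.

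The other 7 of the 10 largest rises were Gohir.D06G181700, Gohir.D11G296672, Gohir.D09G030000, Gohir.A10G148000, Gohir.A03G141700, Gohir.A13G164350 and Gohir.D09G097200, with log2 changes of 5.20 to 5.56. Gohir.D11G296672 was the least even of them, with 40.6 and 147 FPKM in fiber and 2.58 and 0 FPKM in GhMD17. In these 10 genes the log2 difference of GhTM-1 minus GhMD17 epidermis at 2 DPA was 4.06 to 5.45, while that of fiber minus GhTM-1 epidermis was -0.08 to 1.60. Both comparisons share libraries with that of fiber and mutant, so the values are set side by side only. The rises with the smallest adjusted p were in Gohir.D09G030000 (285 and 323 against 6.88 and 5.91 FPKM), Gohir.A05G407900 (194 and 215 against 5.94 and 7.40 FPKM) and Gohir.D09G230100 (105 and 102 against 8.60 and 8.99 FPKM).

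Among the genes called higher, 2 had mean levels of 12726 and 12637 FPKM in fiber. Gohir.D07G160800 had 12843 and 12610 FPKM in fiber and 395 and 543 FPKM in GhMD17 (log2 change 4.78 ± 1.23, SE, limma adjusted p = 0.028). Its libraries in GhMD17 at 0 DPA were at 0.369 and 29.2 FPKM, a wide gap that enters the shared spread. The call was lost without any 1 of the 4 libraries compared, with adjusted p from 0.109 to 0.141. Gohir.A13G177500 had 9673 and 15600 FPKM against 754 and 989 FPKM, and Gohir.A07G154400 had 7167 and 6573 FPKM against 212 and 199.9 FPKM. The 2 others were Gohir.D04G037100 and Gohir.A10G150100, with mean ratios of 9.82 and 5.47. Gohir.A10G150100 is the ID next to Gohir.A10G150200, yet it was high in every line and stage, with 958 and 1282 FPKM in GhMD17 at 2 DPA and 3796 and 3810 FPKM in GhTM-1 epidermis at 0 DPA.

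**Figure D2:**
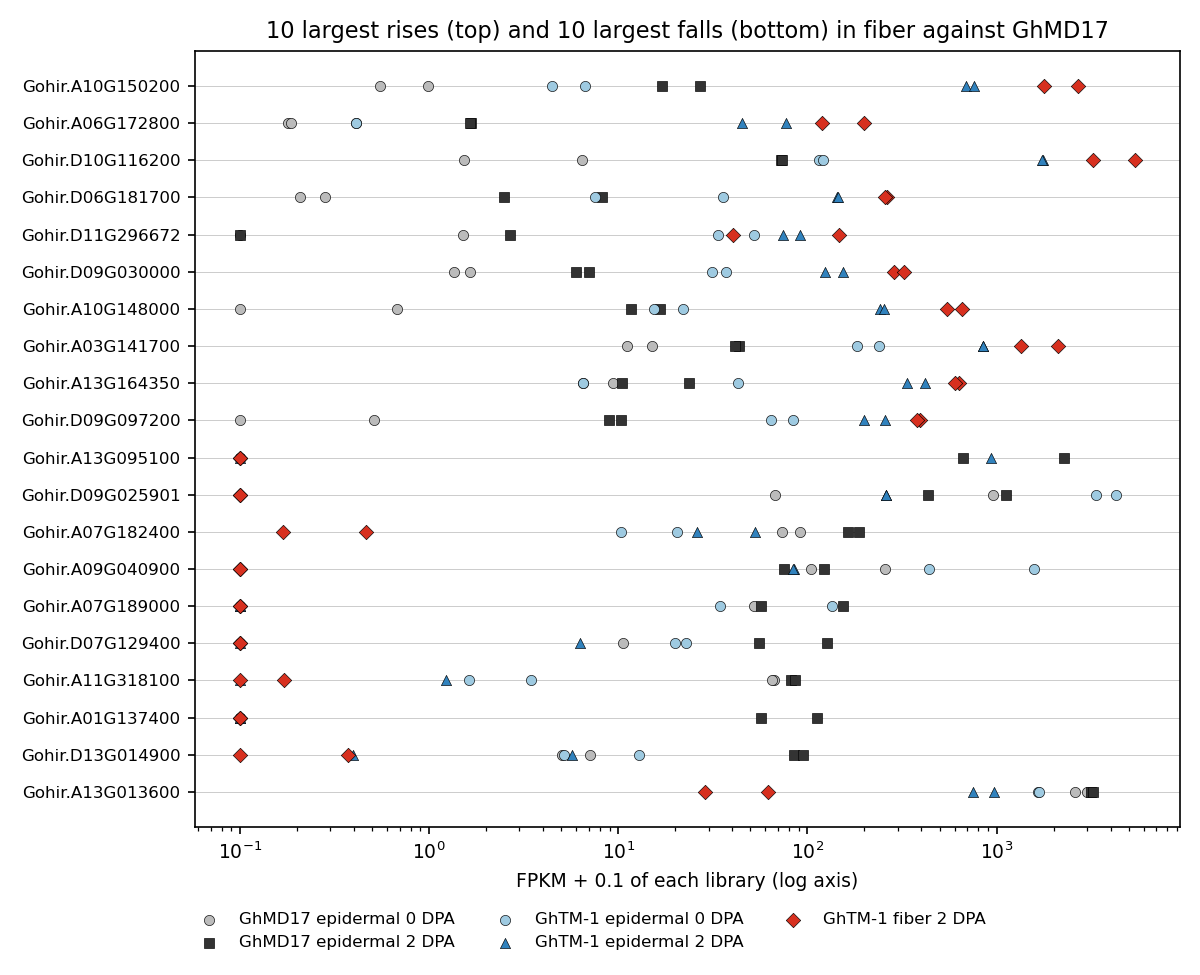
FPKM + 0.1 in each of the 10 G. hirsutum libraries (log axis) for the 10 genes with the largest log2 rise and the 10 with the largest fall in fiber against GhMD17, points coloured by group with 2 libraries per group. In the upper 10 genes GhTM-1 epidermis at 2 DPA sits close to fiber and far from GhMD17, and in 6 of the lower 10 both fiber libraries are listed at 0 FPKM.

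The largest falls were of several kinds. In 6 of the 10 genes both fiber libraries were listed at 0, where an absent transcript and a failed estimate look the same, so no fold is given. Gohir.D09G025901 was listed at 0 in both fiber libraries but was high in every other group, from 67.3 FPKM in GhMD17 to 4285 FPKM in GhTM-1 epidermis at 0 DPA. Gohir.A09G040900 was also at 0 in fiber and had 84.4 and 84.1 FPKM in GhTM-1 epidermis and 75.5 and 122 FPKM in GhMD17 at 2 DPA. In these 2 genes the log2 difference of wild-type minus mutant epidermis at 2 DPA was -1.42 ± 1.05 and -0.19 ± 0.61 (SE), and neither was called.

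Gohir.A01G137400 was listed at 0 in all 6 GhTM-1 libraries and in GhMD17 at 0 DPA, and at 112 and 56.7 FPKM in GhMD17 at 2 DPA. It was thus read only in the mutant and only at the later stage. Gohir.A11G318100 had 0.071 and 0 FPKM in fiber, 0 and 1.13 FPKM in GhTM-1 epidermis, and 82.1 and 86.2 FPKM in GhMD17. It was also high in GhMD17 at 0 DPA, at 66.1 and 64.6 FPKM. Gohir.A07G182400 was graded between these extremes, with 0.0689 and 0.366 FPKM in fiber, 52.8 and 26.1 FPKM in GhTM-1 epidermis and 163 and 188 FPKM in GhMD17 (log2 change -7.19 ± 0.39, SE, limma adjusted p = 7.72e-05). Gohir.D13G014900 had 0 and 0.272 FPKM in fiber and 84.9 and 94.7 FPKM in GhMD17.

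3 of the 10 largest falls rest on uneven libraries, in part of groups outside the comparison, whose gaps enter the shared spread. In GhMD17 at 0 DPA, Gohir.A07G189000 had 52.2 and 0 FPKM and Gohir.D07G129400 had 10.5 and 0 FPKM. The latter also had 6.15 and 0 FPKM in GhTM-1 epidermis at 2 DPA. The values that follow are at 2 DPA. Gohir.A13G095100, listed at 0 in both fiber libraries, had 2260 and 668 FPKM in GhMD17 but 0 and 935 FPKM in GhTM-1 epidermis, and its call was lost without any 1 of the 4 libraries compared (limma adjusted p 0.0917 to 0.143). Gohir.A07G189000 had 154 and 56.8 FPKM in GhMD17 and lost its call in the same way (0.0793 to 0.138). Gohir.D07G129400, at 55.2 and 126 FPKM in GhMD17, lost it only without GhMD17 replicate 2 (0.0679).

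The most abundant gene called lower was Gohir.A13G013600, with 3167 and 3242 FPKM in GhMD17 and 61.4 and 28.8 FPKM in fiber, a ratio of 71.0. In GhTM-1 epidermis it had 1653 and 1676 FPKM at 0 DPA and 971 and 751 FPKM at 2 DPA. Gohir.D13G014700 had a like course, with 2447 and 2943 FPKM in GhMD17, 543 and 464 FPKM in GhTM-1 epidermis and 76.6 and 49.1 FPKM in fiber at 2 DPA. Gohir.D10G192200 had 1523 and 2289 FPKM against 263 and 343 FPKM. The calls of Gohir.A08G000173 (702 and 473 against 1914 and 2338 FPKM) and Gohir.A10G015000 (678 and 850 against 2016 and 1823 FPKM) were lost without any 1 of the 4 libraries, with adjusted p of 0.0638 to 0.138 and 0.0708 to 0.173. The most precise falls were in Gohir.A12G182200 (3.70 and 4.11 against 126 and 122 FPKM, log2 change -4.67 ± 0.12, SE, limma adjusted p = 2.48e-05), Gohir.D07G226200 (2.01 and 1.91 against 84.9 and 98.3 FPKM) and Gohir.A05G206000 (4.89 and 4.69 against 235 and 202 FPKM).

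MYB genes were called in both directions. Of 20 MYB genes, 8 were called higher in fiber, 7 lower and 5 neither, beside 4.91% and 9.61% of all genes, and their median log2 change was -0.59 against -0.22 for all genes. The study had chosen these genes on the same samples, apart from the 2 GhMYB2 homologs, so the counts are not independent evidence of a direction. Without fiber replicate 2 the count was 5 higher and 6 lower. The genes called higher were 2 GhMYB25 homologs, 4 MYB4 homologs, 1 GhMYB109 homolog and the MYB96 homolog. Those called lower were 3 MYB16 homologs, 3 MYB17 homologs and 1 MYB6 homolog.

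The GhMYB25 homologs, which stand in the clade of Arabidopsis MYB106 and promote fiber development in cotton, had the largest rises. Gohir.1Z049716, on an unplaced scaffold, had 196 and 199 FPKM in fiber, 116 and 115 FPKM in GhTM-1 epidermis and 8.51 and 8.27 FPKM in GhMD17 at 2 DPA (log2 change of fiber against GhMD17 4.40 ± 0.17, SE, limma adjusted p = 2.98e-05). Gohir.D04G191100 had 281 and 260 FPKM in fiber, 157 and 154 FPKM in GhTM-1 epidermis and 12.1 and 14.4 FPKM in GhMD17 (4.26 ± 0.29, SE, adjusted p = 1.56e-04). In GhMD17 at 0 DPA the former was at 0 and 0.306 FPKM and the latter at 0.196 and 1.30 FPKM, whereas GhTM-1 epidermis at that stage had 133 and 163 FPKM and 211 and 271 FPKM. Both homologs were thus far lower in GhMD17 than in any GhTM-1 library at either stage, and in GhMD17 the values of both were higher at 2 DPA than at 0 DPA. At these low levels in GhMD17, expression in the mutant, RNA carried over from other samples and reads assigned to the wrong library cannot be told apart from FPKM.

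The MYB16 homologs, whose Arabidopsis relative shares a clade with MYB106, moved the other way. Gohir.A10G154700 had 2.59 and 2.70 FPKM in fiber against 15.7 and 20.4 FPKM in GhMD17 (log2 change -2.37 ± 0.26, SE, limma adjusted p = 9.27e-04). GhTM-1 epidermis at 2 DPA, with 17.7 and 19.0 FPKM, lay within the range of the mutant libraries (log2 difference 0.03 ± 0.26, SE). Gohir.A05G368200 had 6.03 and 7.09 FPKM in fiber and 28.2 and 33.6 FPKM in GhMD17. Gohir.D10G111200 had 0.944 and 1.69 FPKM against 4.22 and 9.59 FPKM, and its call was lost without any of 3 libraries, fiber replicate 1, fiber replicate 2 or GhMD17 replicate 2 (adjusted p up to 0.174).

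GhMYB109 and GhMYB2 homologs stand in the clade of Arabidopsis MYB66, known as WEREWOLF, which sets the pattern of root hairs. The GhMYB109 homolog Gohir.A05G359100 had 10.1 and 15.1 FPKM in fiber and 2.43 and 4.08 FPKM in GhMD17 (log2 change 1.68 ± 0.40, SE, limma adjusted p = 0.0207). Its call was lost without fiber replicate 2 or without GhMD17 replicate 1 (adjusted p up to 0.121). Its relative Gohir.D04G055100 had 8.77 and 8.95 FPKM against 2.05 and 4.51 FPKM and was not called (adjusted p = 0.115). The GhMYB2 homologs were not called either. Gohir.A08G168600 had 25.7 and 22.3 FPKM in fiber and 29.3 and 29.6 FPKM in GhMD17, and Gohir.D08G187100 had 22.0 and 21.1 FPKM against 43.4 and 38.8 FPKM, so in both the mean was on the side of the mutant.

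The 4 MYB4 homologs, relatives of an Arabidopsis repressor of phenylpropanoid genes, were all called higher, with log2 changes of 1.75 to 3.07. Gohir.D01G158500 was the strongest, with 24.3 and 23.2 FPKM in fiber against 2.66 and 1.38 FPKM in GhMD17 (limma adjusted p = 0.00204). Gohir.D11G181000 and Gohir.A11G173900 had mean ratios of 9.66 and 4.86, and Gohir.A01G167300 lost its call without fiber replicate 2 or GhMD17 replicate 2 (adjusted p up to 0.0842). The homolog of MYB96, which promotes cuticular wax in Arabidopsis, was Gohir.D04G049200, with 7.56 and 10.99 FPKM against 1.63 and 1.72 FPKM. Its call was lost without fiber replicate 2 or either GhMD17 library (adjusted p up to 0.0976).

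Among the other MYB genes lower in fiber, the MYB6 homolog Gohir.D11G168000 had 12.7 and 11.3 FPKM against 30.5 and 42.9 FPKM. The 3 MYB17 homologs, Gohir.D08G151700, Gohir.A07G142700 and Gohir.D07G148500, had log2 changes of -1.54, -2.26 and -3.13. The call of Gohir.D07G148500 (0.121 and 0.955 against 10.5 and 13.6 FPKM) was lost without fiber replicate 1 or either GhMD17 library (limma adjusted p up to 0.0805). The second MYB6 homolog, Gohir.A13G120500, had an adjusted p of 0.0297 but only 4.01 FPKM on average in GhMD17, under the minimum for a call. The MYB73 homolog Gohir.A11G220200 had 5.26 and 3.04 FPKM against 20.1 and 7.90 FPKM and was not called (adjusted p = 0.0725).

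As over all called genes, the MYB genes called higher and those called lower differed in where GhTM-1 epidermis stood, given here as values without a test. For the 8 called higher, the median log2 difference was 0.76 for fiber minus GhTM-1 epidermis and 1.83 for GhTM-1 minus GhMD17 epidermis at 2 DPA. For the 7 called lower, it was -1.60 and -0.21. Over all genes called higher these medians were 0.64 and 0.96, and over all genes called lower -1.05 and -0.62. In fiber against GhTM-1 epidermis, 1 of the 20 MYB genes was called higher and 5 lower (1.37% and 5.19% of all genes), and in GhTM-1 against GhMD17 epidermis 5 were called higher and 0 lower (3.04% and 2.52% of all genes), each with a ratio over 1.5. These comparisons share libraries with that of fiber and GhMD17.

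**Figure D3:**
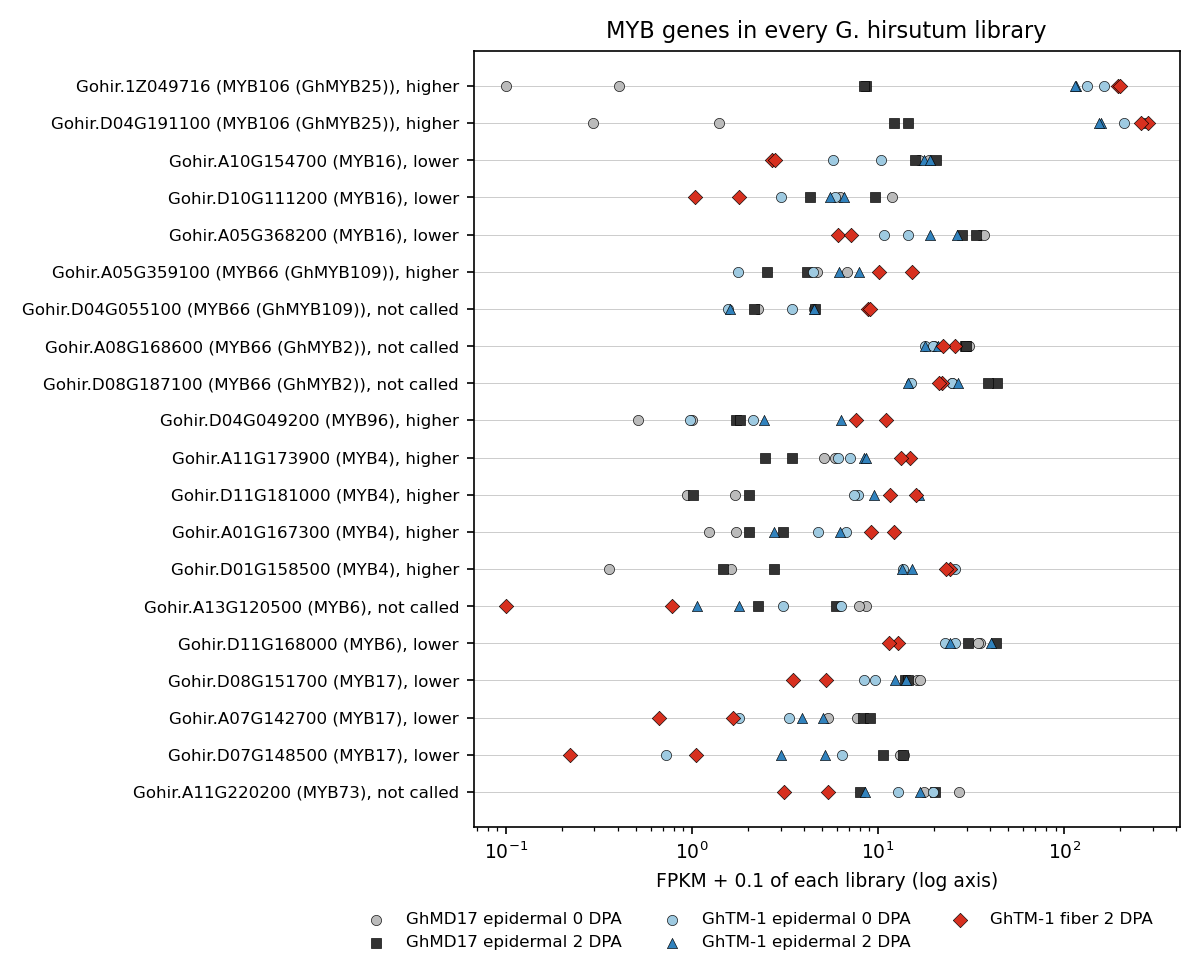
FPKM + 0.1 in each of the 10 G. hirsutum libraries (log axis) for the 20 MYB genes, with the clade and the call in fiber against GhMD17 beside each ID and 2 libraries per group. The 2 GhMYB25 homologs lie over 100 FPKM in every GhTM-1 library and under 15 FPKM in every GhMD17 library, and the 3 MYB16 homologs are lowest in fiber.

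ARF genes were nearly uniform in direction. Of 20 ARF genes, 1 was called higher in fiber, 17 lower and 2 neither, beside 4.91% and 9.61% of all genes, and their median log2 change was -1.60 against -0.22 for all genes. These genes too were chosen by the study on the same samples, so the count is not independent evidence. The 17 falls ran from -1.05 to -2.78 on the log2 scale. Without any 1 of the 4 libraries compared, 13 to 17 ARF genes were called lower. In fiber against GhTM-1 epidermis 0 of the 20 were called higher and 14 lower, beside 1.37% and 5.19% of all genes. In GhTM-1 against GhMD17 epidermis at 2 DPA, 0 were called higher and 2 lower, beside 3.04% and 2.52% of all genes. Both comparisons share libraries with that of fiber and GhMD17.

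The ARF16 homologs, relatives of repressor-type ARFs that microRNA160 targets in Arabidopsis, fell the most. Gohir.D10G213600 had 6.08 and 4.37 FPKM in fiber, 14.0 and 16.9 FPKM in GhTM-1 epidermis and 33.7 and 51.0 FPKM in GhMD17 at 2 DPA (log2 change -2.78 ± 0.25, SE, limma adjusted p = 4.43e-04). Gohir.A10G205300 had 5.09 and 6.33 FPKM, 10.9 and 16.2 FPKM, and 32.5 and 48.9 FPKM in the same groups. The ARF10 homolog Gohir.D03G135400 had 1.34 and 1.30 FPKM against 4.54 and 6.43 FPKM, and without GhMD17 replicate 2 it was no longer called, its GhMD17 level then being under 5 FPKM.

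The 5 ARF2 homologs, relatives of an Arabidopsis repressor of growth, were, with the ARF16 homologs, the most abundant ARF genes of the list in GhMD17 at 2 DPA by FPKM. Gohir.A11G038500 had 16.4 and 16.3 FPKM in fiber against 65.0 and 53.7 FPKM in GhMD17. Gohir.D11G041800 had 12.5 and 10.1 FPKM against 57.4 and 46.4 FPKM (log2 change -2.10 ± 0.18, SE, limma adjusted p = 3.52e-04). Gohir.A07G047300, Gohir.D07G051500 and Gohir.D12G195600 had log2 changes of -1.60, -1.42 and -1.31. The call of the last was lost without GhMD17 replicate 1 or either fiber library (adjusted p up to 0.106).

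Homologs of the activator-type ARFs, known in Arabidopsis as ARF5, ARF6, ARF7, ARF8 and ARF19, were lower with 3 exceptions. The ARF6 homolog Gohir.D05G148500 had 0.707 and 1.31 FPKM in fiber against 9.44 and 10.95 FPKM in GhMD17, a ratio of 10.1, and Gohir.A05G146200 had 1.96 and 3.43 against 10.9 and 14.7 FPKM. The ARF5 homolog Gohir.A01G112300 had 3.45 and 1.88 FPKM against 11.2 and 9.90 FPKM. The call of the other ARF5 homolog, Gohir.D01G099100, was lost without fiber replicate 2 or either GhMD17 library, and so was that of the ARF8 homolog Gohir.D12G051400 (limma adjusted p up to 0.170 and 0.108). The ARF3 homolog Gohir.D10G029000, outside this class, had 1.67 and 1.72 FPKM against 11.4 and 9.23 FPKM. Neither the ARF8 homolog Gohir.A12G052900 (11.4 and 4.69 against 16.9 and 12.5 FPKM, adjusted p = 0.169) nor the ARF7 homolog Gohir.A06G078900 was called. The latter had an adjusted p of 0.0312 but did not reach 5 FPKM in either group.

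ARF19 homologs stood on both sides. Gohir.A05G408200 (ARF19a) had 13.8 and 18.7 FPKM in fiber, 11.03 and 13.8 FPKM in GhTM-1 epidermis and 6.40 and 5.89 FPKM in GhMD17 (log2 change 1.26 ± 0.31, SE, limma adjusted p = 0.0245). This only rise among the ARF genes was lost without fiber replicate 2 (adjusted p = 0.129), GhMD17 replicate 1 (0.0933) or GhMD17 replicate 2 (0.110). Gohir.D05G036600 (ARF19b) had 1.64 and 1.87 FPKM against 5.32 and 5.98 FPKM (-1.27 ± 0.24, SE, adjusted p = 0.00779). Gohir.D07G016200 (ARF19d) fell by 1.59 on the log2 scale and Gohir.A07G016400 (ARF19c) by 1.05, the latter losing its call without fiber replicate 2 or GhMD17 replicate 1 (adjusted p up to 0.0771). The difference in change between ARF19a and the other homologs was not tested.

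**Figure D4:**
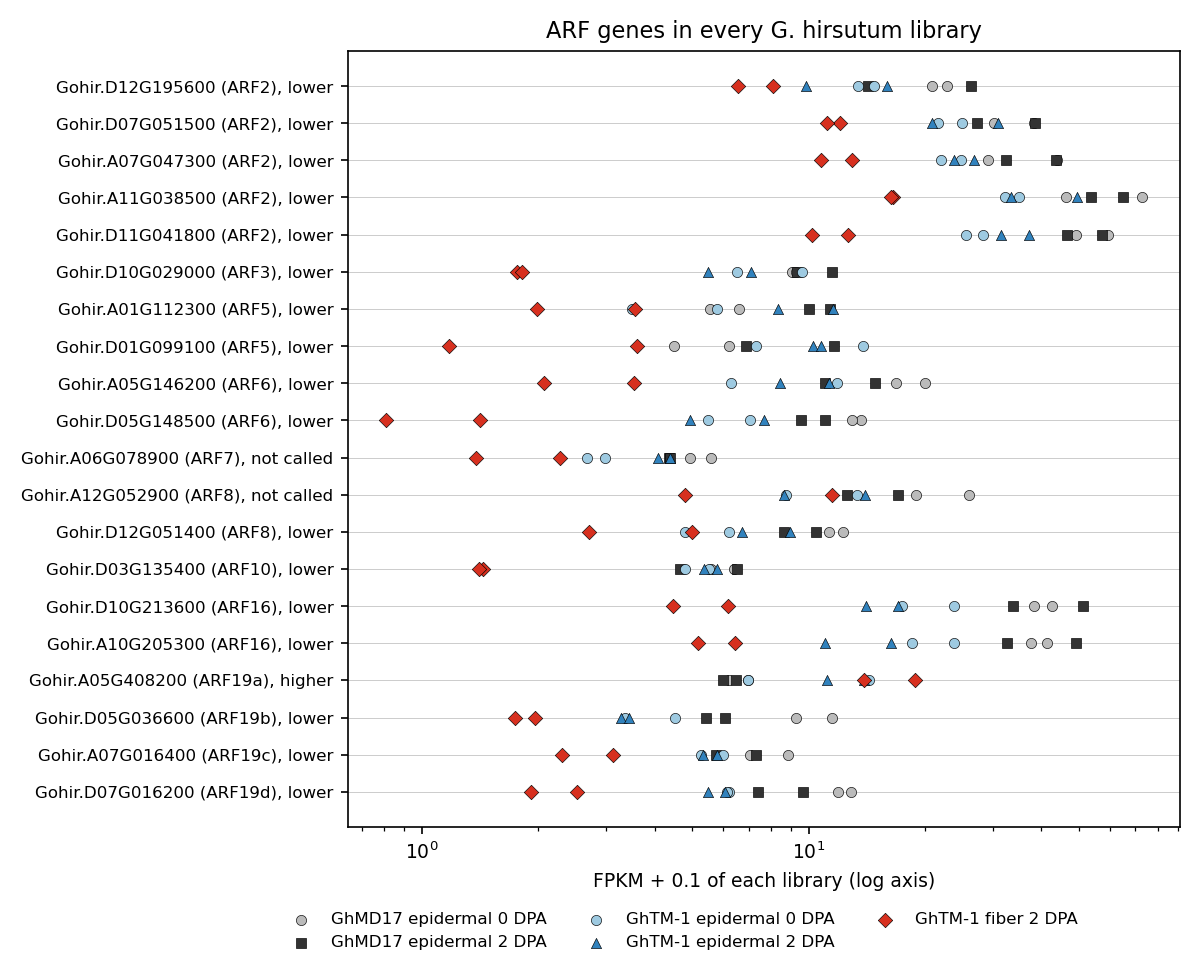
FPKM + 0.1 in each of the 10 G. hirsutum libraries (log axis) for the 20 ARF genes, with the homolog and the call in fiber against GhMD17 beside each ID and 2 libraries per group. Fiber is the lowest group in mean for the 17 genes called lower, and ARF19a (Gohir.A05G408200) is the exception with 13.8 and 18.7 FPKM in fiber.

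Comparisons whose group means use none of these 4 libraries were set beside these calls. The one at 0 DPA came from the same fit of 10 libraries. Its P values therefore share the spread of each gene with the calls of fiber against GhMD17, and the calls are not fully independent. In epidermis at 0 DPA, 2014 genes were called higher in GhTM-1 than in GhMD17 (3.50% of the genes tested, ratio over 1.5) and 1346 lower (2.34%). Of the 2822 genes higher in fiber, 1185 were also higher in GhTM-1 at 0 DPA, 42.0% of the former and 58.8% of the latter list, and 11 were called lower there. Of the 5523 genes lower in fiber, 799 were also lower, 14.5% and 59.4% of the lists, and 40 were called higher. GhMYB25 homologs were among the genes shared, at log2 differences of 7.02 and 7.18. At 0 DPA the top layer of GhTM-1 holds fiber initials and that of GhMD17 does not, so the difference of lines and that of initials cannot be told apart in this comparison either.

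In Gb3-79, where fiber and epidermis come from the same line, 37563 genes had orthologs tested in both. Of the 2050 genes higher in GhTM-1 fiber than in GhMD17, 739 were higher in Gb3-79 fiber than in Gb3-79 epidermis, 36.0% of the former and 63.7% of the latter list, and 5 were lower. Over all 38450 orthologs tested in Gb3-79, 3.03% were called higher and 7.55% lower. Of the 4345 genes lower, 1837 were lower in Gb3-79 fiber too, 42.3% and 63.5% of the lists, and 26 were higher. Of the 20 MYB genes, 8 were called in the same direction in Gb3-79 and 8 at 0 DPA, and of the 20 ARF genes 10 and 6. Over all genes, 739 higher and 1837 lower of 37563 were called in the same direction in Gb3-79. At 0 DPA these were 1185 and 799 of 57469. The study chose the MYB and ARF genes on this series, apart from the 2 GhMYB2 homologs, so their counts are not independent evidence. The only ARF rise, ARF19a, was also called higher in Gb3-79 fiber (log2 change 1.44, limma adjusted p = 0.0146). It was not called in GhTM-1 fiber against GhTM-1 epidermis (log2 difference 0.35, limma adjusted p = 0.609).

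Few genes were read in only 1 line. In all 4 GhMD17 libraries 6 genes were listed at 0 while both fiber libraries were over 5 FPKM. Among these Gohir.A11G276700 had 17.2 and 73.2 FPKM in fiber and 37.4 and 40.2 FPKM in GhTM-1 epidermis at 0 DPA, and Gohir.D02G094575 had 8.08 and 70.2 FPKM in fiber and was listed at 0 in all other libraries. Conversely, 11 genes were listed at 0 in all 6 GhTM-1 libraries and over 5 FPKM in both GhMD17 libraries at 2 DPA. Gohir.A08G152450, with 37.2 and 28.3 FPKM, and Gohir.A01G137400 were examples, and both were also at 0 in GhMD17 at 0 DPA. Of the former, Gohir.A13G155000 and Gohir.D03G050750 were not called in fiber against GhMD17. Nor were Gohir.D02G116550, Gohir.D06G071750 and Gohir.D10G095450 of the latter. GhMD17 reads were mapped to the genome of GhTM-1, and how far this sets a 0 in GhMD17 was not tested. No run of 3 or more of the genes at 0 in 1 line was found at neighbouring IDs. These counts depend on the minimum and were 24 and 33 at 1 FPKM and 2 and 6 at 10 FPKM.

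A set of strong fiber genes had a median level of 0.15 FPKM in GhMD17 at 0 DPA and 4.05 FPKM at 2 DPA. The set was chosen after the values were seen, as the 64 genes called higher with a mean under 1 FPKM in GhMD17 at 0 DPA and over 50 FPKM in fiber, and includes Gohir.A10G150200, Gohir.D09G097200 and both GhMYB25 homologs. Their level in GhMD17 at 2 DPA was 3.34% of that in fiber at the median, with quartiles of 2.21% and 4.95% and a range of 0.973% to 12.9%. The medians of the 2 GhMD17 libraries were 3.05% and 3.68%. For all 64 genes GhMD17 was higher at 2 than at 0 DPA, and for 62 both libraries at 2 DPA were above both at 0 DPA. The limit at 0 DPA favours that direction. Of the 74 genes within both FPKM limits whatever their call, 71 had a higher mean in GhMD17 at 2 than at 0 DPA. GhTM-1 epidermis was at a median of 48.7% of the fiber level at 2 DPA and 16.3% at 0 DPA. The median in GhMD17 was 3.04% for the 50 genes under 0.5 FPKM at 0 DPA and 3.31% for the 28 genes over 100 FPKM in fiber. At 2 DPA, 3 of the genes were still under 1 FPKM on average in GhMD17, and 2 had a GhMD17 library listed at 0. Whether the level at 2 DPA is expression in the mutant, carried-over RNA or misassigned reads was not tested, and it bears on the ratios of fiber to GhMD17 given for such genes.

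**Figure D5:**
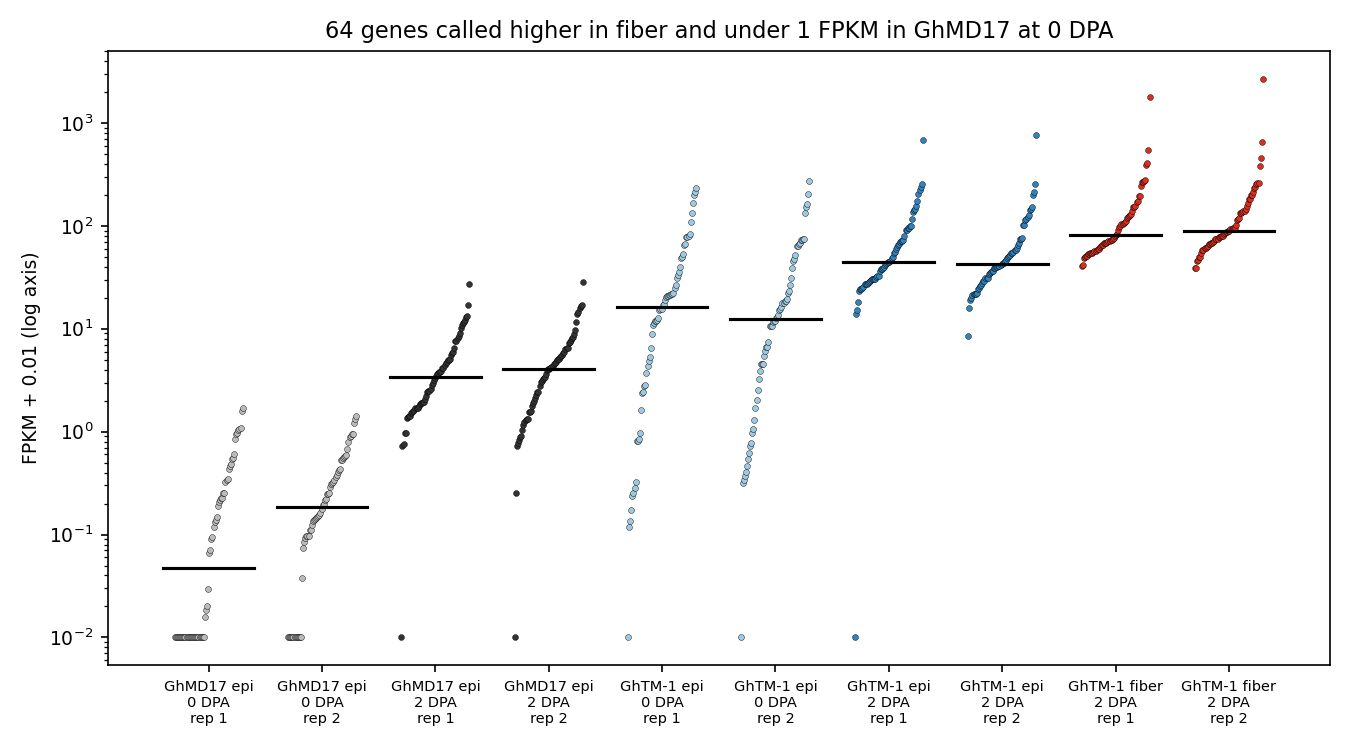
FPKM + 0.01 (log axis) of the 64 genes in each of the 10 G. hirsutum libraries, sorted by level within a library, with the black line at the library's median. The medians of both GhMD17 libraries at 2 DPA lie between those of GhMD17 at 0 DPA and of the GhTM-1 groups, and GhMD17 at 2 DPA was at a median of 3.34% of the fiber level.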

How the data were processed

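The authors mapped the reads of each LCM library to the G. hirsutum TM-1 genome (Gb3-79 to that of G. barbadense) with TopHat2 2.1.1, kept uniquely mapped reads and deposited FPKM per gene and library from Cufflinks 2.2.1, without pooling replicates. SAMtools 1.5 is also named in the submitters' processing notes. The GhTM-1 and GhMD17 tables were joined by gene ID, and genes at 0 in all 10 libraries were left out. limma 3.58.1 in R 4.3.3 was fitted to log2(FPKM + 1) with 1 mean for each of the 5 G. hirsutum groups and a variance trend. The fold change on this scale understates that of low genes. Adjusted p-values are Benjamini-Hochberg over the 57469 genes. Gb3-79 was fitted alone on the authors' ortholog table. The limits for a call are those of the study, but not its test, whose groups are not given in the sources used here.

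Genes were named by rule: the 10 largest log2 changes in each direction, the 5 with the highest FPKM in fiber or GhMD17, the 3 with the smallest adjusted p in each direction, and the MYB and ARF genes drawn by the study. The members, lists and limits were chosen with earlier results of these data known. The gene IDs were not paired with product names or sequences in the tables used here, so lists by product name were not built and no sequence is shown. Alternatives were the pseudocount, the FPKM minimum and ratio, a filter on low genes, an adjusted p, fewer libraries, a test of each gene alone, a replicate block, rescaled libraries, orthologs only and leaving out each library. Figures used Python 3.11.15 with matplotlib 3.10.9.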

Additional observations from a re-analysis of the deposited data

How the results depend on the processing

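The log2 change of each of the 74 named genes kept its sign under the alternatives run on it. In each of these genes both libraries of 1 group lie above both of the other. Leaving out 1 library therefore could not reverse the sign, and its keeping is no sign of stability. The genes called lower were 3491 with a minimum of 10 FPKM, and a test of each gene alone on the 4 libraries, without a shared prior, called 1106 higher and 1642 lower. Leaving out 1 library gave 2238 to 2575 genes higher, 4091 to 4635 lower, 5 to 8 MYB genes higher (5 without fiber replicate 2, when 6 were lower), 5 to 7 MYB genes lower, 0 to 1 ARF genes higher and 13 to 17 ARF genes lower. The genes at 0 in 1 line were 24 (GhMD17) and 33 (GhTM-1) at a minimum of 1 FPKM and 2 and 6 at 10 FPKM. Of the 74 named genes, 17 lost their call without at least 1 library, 11 of them MYB or ARF genes. The 74 include 5 MYB and 2 ARF genes that were not called and so had no call to lose. With only the 4 libraries compared in the fit, 5 named genes lost their call, and with a pseudocount of 0.1, 1 did. Rescaling the libraries by factors of 0.942 to 1.013 moved the median log2 change by 0.018. Correlations of deviations between replicates ran from -0.12 to 0.13 over 10 pairs of groups, and that of fiber with GhMD17 at 2 DPA was 0.11. The labels do not say whether replicate numbers pair the libraries, and such weak correlations cannot settle it. With the replicate block, 2833 genes were called higher and 5548 lower, of which 2756 and 5302 were among the genes called without it, and Gohir.A11G220200 (MYB73) gained a call. With 2 libraries per group and no read counts, the counting error of low genes is unknown.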

Other observations

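The called genes were spread over all 26 chromosomes. The share of tested genes higher in fiber was 5.05% on the A and 4.81% on the D subgenome, and the share lower 9.56% and 9.69%. By chromosome the share higher ran from 3.75% on A12 to 6.32% on A13, and the share lower from 8.31% on A04 to 10.8% on D03. Chromosomes A12 and D12, which carry the MYB25-like genes linked to the naked seeds of GhMD17, had 3.75% and 4.25% higher and 9.17% and 10.2% lower.

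Runs of at least 4 called genes at neighbouring IDs were found 2 times for genes higher in fiber, at Gohir.A13G220400 to Gohir.A13G220700 and Gohir.D05G137300 to Gohir.D05G137600, and 5 times for genes lower. Each run held 4 genes. These runs and chromosomes were chosen after their values were seen, and their shares were not tested.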
